A study of Anas platyrhynchos with 6 samples.

Results

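The 150 transcripts described here are those whose abundance most closely followed ZP2, an egg-coat gene of the oocyte, across 6 duck ovary libraries. They were chosen from coding RefSeq transcripts with a mean of 5 to 100 FPKM over the 6 libraries and at least 1 FPKM in every library. FPKM counts sequenced fragments per length of transcript and per size of library. Apart from 2 left out by the rule, 10080 of the 41952 transcripts in the tables met these limits. They were ranked by the Pearson correlation of log2(FPKM + 1) with the ZP2 transcript XM_005018563.2. The 2 left out were transcripts of the oocyte genes GDF9 and ZAR1L, and their correlations with ZP2, 0.71 and 0.88, lay below the lowest one kept. The correlations chose the members, so they are given as a description and no test was made of them.

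The ovaries came from Jinding ducks, a laying breed of the domestic duck, all drawn from a half-sib family, kept alike and 340 days old. Daily egg records put ducks with a laying rate above 99% in the high group and those below 85% in the low group, with 3 libraries in each group. The labels do not say whether each library came from a separate duck or which follicles the sampled tissue held. The p-values therefore set a group difference only against the spread between these libraries, part of which may be technical. Libraries are called high 1 to 3 and low 1 to 3, and these numbers do not pair them. Summed FPKM ranged from 569606 to 639135 per library, and read depth is unknown. Because whole tissue was measured, fewer cells of a type and less RNA per cell cannot be told apart.

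A laying ovary holds oocytes of many sizes, each enclosed by granulosa and theca cells and set in a stroma with vessels and leukocytes. ZP2 encodes a glycoprotein of the coat around the egg, which in mouse is made by the oocyte. A growing oocyte also stores RNAs and proteins for the period before the embryo transcribes its own genes, and in mouse and frog it uses a germline form of the TATA-binding protein, encoded by TBPL2.

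ZP2 was at 467, 337 and 288 FPKM in the high libraries and at 517, 362 and 179 FPKM in the low libraries. The highest and the lowest library were both in the low group, so the groups overlapped completely. The ratio between low 1 and low 3 was 2.89. The members followed this order of libraries. Low 3 was the lowest library for 150 of the 150, low 1 was the highest for 128, and high 1 was the highest for the other 22. Relative to its own mean over the 6 libraries, the median member stood at 0.19, 0.0069 and -0.11 log2 units in high 1 to 3 and at 0.42, 0.026 and -0.60 in low 1 to 3. The median of all 10080 ranked transcripts stayed between -0.064 and 0.053. Together the members summed to 6203 FPKM in low 1, or 1.05% of that library, and to 2957 FPKM in low 3, or 0.488%.

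**Figure D1:**
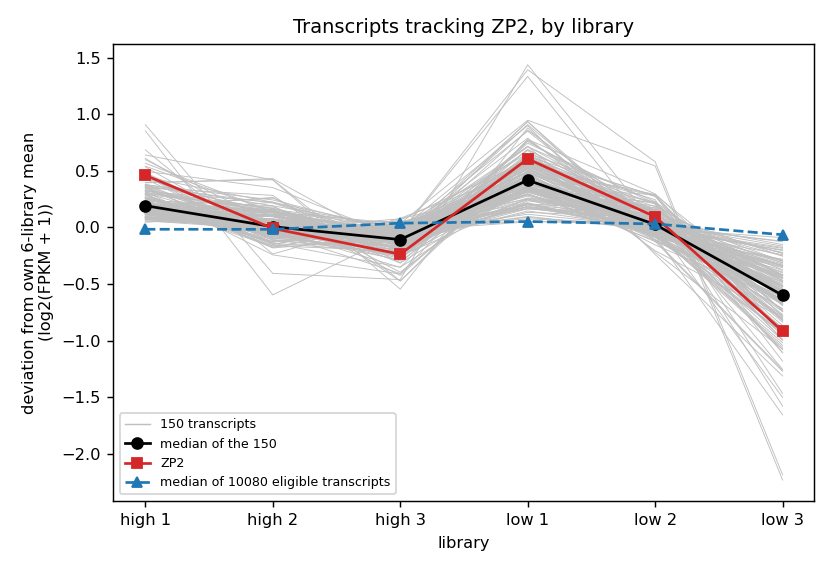
Deviation of each of the 150 transcripts (grey), their median (black), ZP2 (red) and the median of all 10080 ranked transcripts (blue) from the mean over 6 libraries, in log2(FPKM + 1), for each library. The members are highest in low 1, at a median of 0.42, and lowest in low 3, at a median of -0.60, while the median of all ranked transcripts stays near 0.

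The order of libraries was shared more exactly by some members than by others. The 6 libraries stood in the full order of ZP2 for 39 members, and for 64 of all ranked transcripts, or 0.635%. Within the low group 149 members were highest in low 1, intermediate in low 2 and lowest in low 3. Within the high group the order high 1, high 2, high 3 held for 113. High 2 and low 2 differed by at most 10 percent of low 2 for 93 members. All of these counts follow in part from choosing the members by their correlation with ZP2.

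Correlations with ZP2 ran from 0.998 for XM_005022257.2 to 0.931 for XM_013094095.1, beside a median of 0.12 over all ranked transcripts. On the negative side, the 150th transcript was at -0.898. XM_005022257.2, which has no symbol, was at 8.95, 5.75 and 4.50 FPKM in the high and 10.2, 6.08 and 1.75 FPKM in the low libraries. The next by correlation, XM_005024264.2 and XM_005017163.2, also without a symbol, had r = 0.993 each and means of 13.9 and 8.73 FPKM. At the other end, the last 3 transcripts inside the limit were XM_013091821.1 of FRMD4B, XM_013105763.1 and XM_013094095.1, at 0.932, 0.932 and 0.931. The first 3 outside were XM_013098102.1, XM_013101826.1 and XM_013099207.1, each at 0.931, so the limit did not fall at a gap.

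The correlations rested on low 1 and low 3 to a degree that differed between members. Over the other 4 libraries the median correlation of the members with ZP2 was 0.85, with a range from 0.52 to 0.998, and 23 members were below 0.7. XM_005022257.2 kept its value of 0.998, and SEC23A went from 0.93 to 0.98. A value of at least 0.9 was found for 55 members and for 459, or 4.55%, of all ranked transcripts. The 4 libraries also went into the choice of members, so the larger share among them follows in part from the rule. When the 150 were chosen again with a library left out, the number shared with the original choice was 49 without high 1, 95 without high 2, 70 without high 3, 91 without low 1, 82 without low 2 and 51 without low 3. It was 17 without both low 1 and low 3. With a single library left out, 123 to 150 of the members stayed among the first 500 transcripts by correlation, and with both left out 57 did. Only 19 members, among them HAO1 as the single gene with a symbol, were chosen in all 6 of the sets that left out a single library. The main axis of variation over all ranked transcripts, a first principal component with 44.3% of the variance, had a correlation of 0.83 with ZP2. The members had a median correlation of 0.87 with this axis. That value follows in part from the rule, since ZP2 itself goes with the axis. How many of the ranked transcripts follow the axis was not counted.

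A symbol was found for 36 members, from 34 genes, and 114 members are known here by accession alone. The members with a symbol made up 24.0% of the 150, beside 12.1% of all ranked transcripts. The protein-coding genes HAO1 and TMX4 were direct neighbours in the gene order of the RefSeq Pekin duck assembly, and no other pair of the 34 genes was.

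Genes of germ cells, of transcription and of chromosomes are described first. TBPL2 had 3 transcripts among the members. Its main transcript, XM_013108407.1, was at 95.9, 61.4 and 63.2 FPKM in the high libraries and at 101, 63.3 and 34.2 FPKM in the low libraries. Low 3 was the lowest library and low 1 the highest, with high 1 close to it. Summed over its 3 transcripts, TBPL2 was at 117, 81.4 and 78.8 FPKM in high and 129, 80.9 and 43.7 FPKM in low ovaries, with a correlation of 0.98 and a slope on ZP2 of 0.98. The slope is the change in log2(FPKM + 1) for each log2 unit of ZP2, so a slope of 1 means the same change on this scale. The added 1 shrinks the folds of transcripts at low FPKM, so a slope of 1 is not an equal fold for them. A minor TBPL2 transcript with a mean of 7.37 FPKM had a slope of 1.06 but a ratio of low 1 to low 3 of 4.37. That ratio was 2.89 for ZP2. The main transcript held 75.5% to 82.0% of the sum. DR1, a repressor that binds the TATA-binding protein, had nearly the same order of libraries at a far smaller amplitude, from 46.6 FPKM in low 3 to 55.1 FPKM in low 1, with a slope of 0.16.

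RBM46, an RNA-binding protein that mouse germ cells need for meiosis, was at 8.67, 6.22 and 4.61 FPKM in high and 9.75, 7.25 and 3.87 FPKM in low ovaries, with the libraries in the full order of ZP2. EXO1, an exonuclease of mismatch repair and meiotic recombination, was at 41.0, 27.5 and 24.3 FPKM in high and 56.7, 40.4 and 19.2 FPKM in low ovaries. Its slope was 0.96 and low 1 was 2.96 times low 3. CENPU, a centromere protein named after its values were seen, was at 51.6, 42.7 and 43.3 FPKM in high and 67.1, 44.0 and 30.5 FPKM in low ovaries. RNF32, a RING finger gene known from the testis in human, had the steepest slope of the members with a symbol, 1.87. It was at 35.0, 13.5 and 12.9 FPKM in high and 51.0, 18.5 and 5.76 FPKM in low ovaries, an 8.85-fold ratio of low 1 to low 3. PRMT9, a methyltransferase that acts on a splicing factor in human, had a slope of 0.59, from 20.03 FPKM in low 3 to 42.1 FPKM in low 1.

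Enzymes and secreted proteins are described next, and this grouping is only an order of description. HAO1, an oxidase of glycolate in peroxisomes known chiefly from mammalian liver, had the highest correlation of any member with a symbol, 0.98. It was at 21.9, 16.3 and 10.7 FPKM in high and 22.4, 15.8 and 7.34 FPKM in low ovaries, so high 1 and low 1 were nearly level. PLAU, the urokinase protease that activates plasminogen, was at 42.6, 38.5 and 35.3 FPKM in high and 57.1, 40.4 and 23.5 FPKM in low ovaries. Its values in the high group lay inside the range of the low group. PRCP, a lysosomal carboxypeptidase, had a shallow slope of 0.28, with values between 63.7 and 85.4 FPKM. The thioredoxin-related TMX4, the neighbour of HAO1, had a slope of 0.29 against 1.04 for HAO1, with values between 29.2 and 39.5 FPKM.

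Membrane and signalling genes, with several others, are described last. MACC1, known as a regulator of the receptor MET in human tumours, was at 8.28, 7.71 and 5.77 FPKM in high and 12.2, 8.13 and 2.66 FPKM in low ovaries, with a slope of 1.11. IRAG2, a membrane protein of the endoplasmic reticulum, was at 27.6, 25.8 and 21.6 FPKM in high and 40.1, 26.3 and 13.3 FPKM in low ovaries. SEC23A, part of the COPII coat of transport vesicles, was nearly flat, between 46.0 and 58.7 FPKM with a slope of 0.24. The small GTPase ARL9 had a slope of 0.44 and USP33, a deubiquitinating enzyme, a slope of 0.79. FAM120B, a coactivator of a nuclear receptor, had a slope of 0.81, and YPEL5, of the yippee family, had a slope of 0.25. Named after their values were seen, the dopamine receptor DRD2 was at 22.9, 24.3 and 15.96 FPKM in high and 32.0, 22.1 and 10.2 FPKM in low ovaries, and the succinate receptor SUCNR1 at 15.5, 15.3 and 12.3 against 20.5, 17.2 and 6.68 FPKM. MCOLN2, an ion channel of endosomes and lysosomes, also named afterwards, was at 41.9, 44.6 and 36.03 against 63.2, 41.3 and 17.2 FPKM. For these 3 genes the correlation with ZP2 over the 4 libraries without low 1 and low 3 was 0.65 for DRD2, 0.61 for SUCNR1 and 0.54 for MCOLN2, lower than the 0.85 of the median member.

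The remaining genes with a symbol were PCBD2, GPA33, AKAP10, SAAL1, ST3GAL3, RUFY1, ZBTB38, TUBAL3, RIPOR3, CNP, RAB9A, NMNAT3 and FRMD4B. Across all 36 members with a symbol, low 1 was the highest library for 31 and low 1 was at least 2 times low 3 for 24.

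**Figure D2:**
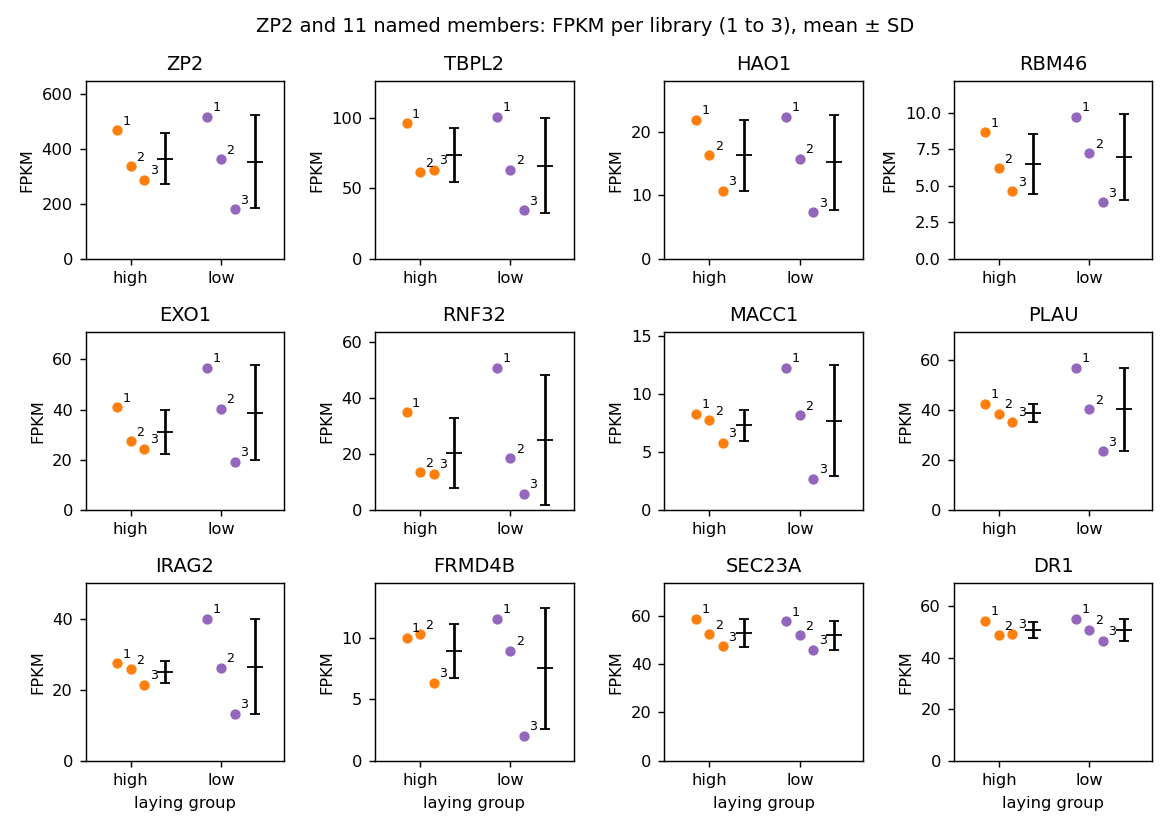
FPKM of ZP2 and 11 named members in each library, with dots numbered by library in the high (orange) and low (purple) group and bars for the group mean ± SD (n = 3). In each panel low 3 is the lowest of the 6 libraries, and in none are the groups separate.

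The rule used correlation alone, which carries no amplitude, and the members differed widely in amplitude. The slope on ZP2 ranged from 0.12 to 2.23 with a median of 0.63 and quartiles of 0.45 and 0.88. It was above 1 for 20 members, or 13.3%, between 0.5 and 1 for 84 and below 0.5 for 46. Over all ranked transcripts the median slope was 0.043, or 0.22 when the sign is ignored, and 106, or 1.05%, were above 1. For a given spread over the libraries, a slope is larger the higher the correlation. The rule therefore in part sets the members' slopes above those of all ranked transcripts. Among the 150 steepest of all ranked transcripts 28 were members. The steepest member was XM_005030591.2, without a symbol, at 61.7, 21.9 and 32.6 FPKM in high and 90.2, 50.9 and 6.62 FPKM in low ovaries. The ratio of low 1 to low 3 ran from 1.14 to 14.4 over the members, with a median of 2.10. It was at least 2 for 88 members and for 11.2% of all ranked transcripts, and this too follows in part from the rule. The median slope was 0.43 without both low 1 and low 3.

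**Figure D3:**
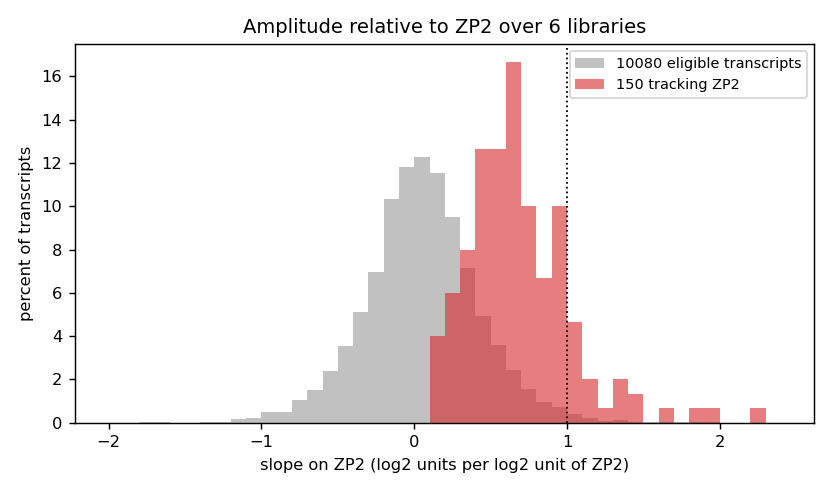
Distribution of the slope on ZP2, in log2 units per log2 unit of ZP2, as percent of the 150 members (red) and of the 10080 ranked transcripts (grey). The dotted line marks a slope of 1, the same change as ZP2 in log2(FPKM + 1). The members have a median of 0.63 and 20 of them lie above 1. Choosing by correlation raises the members' slopes in part.

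Other transcripts of the same genes did not always move with the member. For FRMD4B, a FERM-domain gene, the member XM_013091821.1 was at 10.02, 10.3 and 6.36 FPKM in high and 11.6, 8.94 and 2.03 FPKM in low ovaries. A second FRMD4B transcript, XM_013091823.1, was at 7.67, 9.43 and 10.5 against 8.08, 8.93 and 10.3 FPKM and had a correlation of -0.87 with ZP2. The member was lowest in low 3, where the second transcript was close to its highest value. The second RIPOR3 transcript XM_013105721.1 had a correlation of 0.92, and that of SEC23A, XM_013101319.1, had 0.90 with a slope of 0.79 against 0.24 for the far more abundant member. Such transcripts share reads, and neither the labels nor the tables say how shared reads were divided.

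Transcripts outside the ranked set reached the same correlation. Coding ones were kept out by abundance and non-coding ones by type, at any mean FPKM. All needed at least 1 FPKM in at least 3 libraries, a looser limit than for the members. A correlation at or above that of the 150th member was found for 24 of 955 coding transcripts above 100 FPKM, or 2.51%, for 57 of 6324 below 5 FPKM, or 0.901%, and for 53 of 2331 non-coding transcripts, or 2.27%. Inside the ranked set the share was 150 of 10080, or 1.49%. Of the abundant ones, only BTG4, PTTG1 and PAPOLG had a symbol. BTG4, known in mouse for the removal of maternal RNAs, was at 312, 260.3 and 236 FPKM in high and 355, 260.2 and 105 FPKM in low ovaries, with r = 0.96 and a slope of 1.09. PTTG1, which encodes securin, had r = 0.94 with 236 FPKM in low 1 and 77.5 FPKM in low 3. PAPOLG, a poly(A) polymerase, had r = 0.94 and a slope of 0.77.

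Markers of the oocyte and of the surrounding tissue were read beside the members. Of 20 oocyte markers 6 had a named row, and all 6 had a correlation with ZP2 above 0, ZP2 itself included. TDRD5 had the lowest, 0.37, and GDF9 had 0.71 with its highest value in low 2, at 83.8 FPKM. Over the 4 libraries without low 1 and low 3, the correlation with ZP2 was 0.30 for GDF9 and 0.19 for ZAR1L, but 0.99 for BTG4. The summed oocyte markers were at 709 to 983 FPKM in the high and 421 to 1147 FPKM in the low libraries. ZP2, which the rule used, made up 517 FPKM of the sum in low 1 and 179 FPKM in low 3. BTG4 made up 355 and 105 FPKM, so the sum in large part repeats ZP2 and BTG4. Of 11 stromal markers 7 had a row, and all 7 had a correlation below 0, from -0.062 for SPARC to -0.79 for POSTN, a matrix protein. Their sum was at 2821 to 3313 FPKM in high and 1795 to 3065 FPKM in low libraries, lowest in low 1. In low 3 it was 2837 FPKM, inside the range of the high libraries. POSTN was at 266 FPKM in low 1 and 712 FPKM in low 3, the reverse of ZP2. SPARC, the most abundant of the 7, was lowest in low 1, at 1004 FPKM, and next lowest in low 3, at 1270 FPKM.

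Leukocyte markers, 4 of 8 with a row, summed to 354 to 1452 FPKM in high and 144 to 378 FPKM in low libraries, with the lowest sum in low 1. JCHAIN, a plasma cell gene, made up 1348 FPKM of the sum in high 1, and the other 3 genes summed to 105 FPKM there and to 48.3 FPKM in low 1. In high 1, where ZP2 and the members were above their means, stromal and leukocyte markers were too, by 0.41 and 0.90 log2 units. By mean deviation these markers ran against the members in low 1, at -0.69 and -0.94 log2 units, but not in high 1. In low 3 they stood at 0.27 and 0.12, though both sums there lay inside the range of the high libraries. Endothelial markers, 5 of 6 with a row, summed to 144 to 179 against 107 to 151 FPKM. Their correlations with ZP2 were above 0 for 2 and below 0 for 3, from -0.59 for VWF to 0.81 for EMCN, which reached at most 2.06 FPKM. Granulosa markers, 4 of 10 with a row, summed to 75.7 to 98.1 against 63.4 to 99.2 FPKM, and of these CYP19A1, the aromatase, had a correlation of 0.80 and FSHR of -0.17. ACTA2 of smooth muscle, 1 of 5 listed, was at 1154 FPKM in low 1 and 2510 FPKM in low 3. The thrombocyte genes MMRN1 and TUBB1 had correlations of opposite sign, -0.74 and 0.42, and ESRP1 of the surface epithelium had 0.52. No theca marker had a row, and none of the marker genes with a row was at 0 in every library. The part of the cell makeup of each library in the members' values was not tested.

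**Figure D4:**
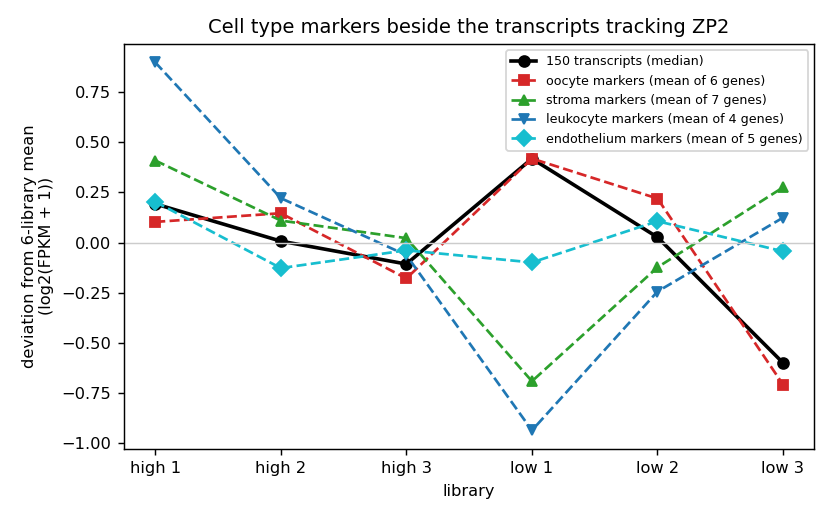
Mean deviation of marker genes from their mean over 6 libraries, in log2(FPKM + 1), for the oocyte (6 genes, ZP2 included), stroma (7), leukocyte (4) and endothelium (5), beside the median of the 150 members (black), by library. In low 1 the members and oocyte markers stand at 0.42 each and the stromal markers at -0.69; in low 3 they stand at -0.60, -0.71 and 0.27. In high 1 all 3 are above their means, at 0.19, 0.10 and 0.41.

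Functional lists were read for the ranked transcripts that have a symbol. Of 160 such transcripts that stood in any of 19 lists, 4 were members, EXO1 in DNA repair, RBM46 in RNA processing, USP33 in protein turnover and SEC23A in membrane traffic, a share of 2.50%. Of the 1224 ranked transcripts with a symbol, 36 were members, or 2.94%. The median correlation with ZP2 was 0.72 over 9 transcripts of DNA repair, 0.70 over 4 of meiosis, 0.69 over 21 of membrane traffic and 0.65 over 10 of cell cycle and spindle. It was -0.74 for the single red cell and thrombocyte transcript, -0.44 over 12 of stroma and matrix, -0.39 over 10 of smooth muscle and -0.29 over 11 of leukocytes. The other 11 lists had medians between 0.014 and 0.59, with the median of all ranked transcripts at 0.12. Among these 11, the median was 0.53 over 5 transcripts of oocyte and germ cell and 0.22 over 6 of maternal RNA control. Neither of these lists held a member, nor did meiosis or cell cycle and spindle. The lists are not complete: EXO1 and RBM46 stood only in the lists named above, and TBPL2 and CENPU stood in none. The ranked transcripts lack those of GDF9 and ZAR1L left out by the rule, and those of ZP2 and BTG4, above its limit of 100 FPKM. All of these correlations are over the same 6 libraries.

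The design sets ovaries of ducks with a high laying rate against those of ducks with a low one. The choice of members used the same 6 libraries, so their differences follow that of ZP2 in part and are a description. ZP2 was at 364 ± 92.9 FPKM (SD, n = 3) in high and 353 ± 169 FPKM (SD, n = 3) in low ovaries. By limma the difference was 0.14 log2 units (SE 0.385, 95% interval -0.75 to 1.04). None of the 150 members passed the threshold of 0.05 on the limma adjusted p, where 0.00505% of all 19790 tested transcripts did. At an unadjusted limma p under 0.05 there were 0 members, where 3.51% of all tested transcripts passed. With limma array weights 0 members were called, where 11.6% of all tested transcripts were. These weights gave low 2 97.1% of its group's weight, so that share rests almost wholly on 1 low library. The smallest unadjusted limma p of a member was 0.30, for XM_005029140.2, and its limma adjusted p was 0.9998. For 0 members were the high libraries all above or all below the low ones, which was the case for 3.72% and 4.83% of all tested transcripts. Nothing is read from these counts, since the choice of members used the same values.

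The log2 difference, high minus low, was above 0 for 124 members and below 0 for 26, where 49.5% of all tested transcripts were above 0. The members' median was 0.071, beside -0.0028 over all tested transcripts, and 0.0082 with array weights. The members' median was 0.32 without low 1, -0.19 without low 3 and -0.0034 without high 1, so its sign rests on single libraries. The interval stayed within 1 unit of log2(FPKM + 1) in either direction for 119 members and did not for 31. For members at low FPKM, 1 such unit is more than a doubling of FPKM. XM_005029140.2 had a difference of 0.40 (SE 0.359), XM_005014133.2 had 0.38 (SE 0.354) and TUBAL3, a tubulin-like gene, had 0.25 (SE 0.248). On the lower side EXO1 had -0.22 (SE 0.386), CNP had -0.080 (SE 0.254) and XM_005031554.2 had -0.085 (SE 0.271). TBPL2 differed by 0.25 (SE 0.377) for its main transcript, HAO1 by 0.17 (SE 0.407), RNF32 by 0.028 (SE 0.713) and RBM46 by -0.047 (SE 0.348). The 95% interval of each of these, and of each other member, included 0.

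The members varied more within the low than within the high group. The SD of log2(FPKM + 1) between libraries was larger in the low group for 150 of the 150, with medians of 0.52 in low and 0.17 in high. ZP2 had SDs of 0.78 in low and 0.36 in high. The members were chosen to follow ZP2, so their larger SD in low follows in part from the rule. Over all ranked transcripts the low group had the larger SD for 69.6%, with medians of 0.29 and 0.18.

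**Figure D5:**
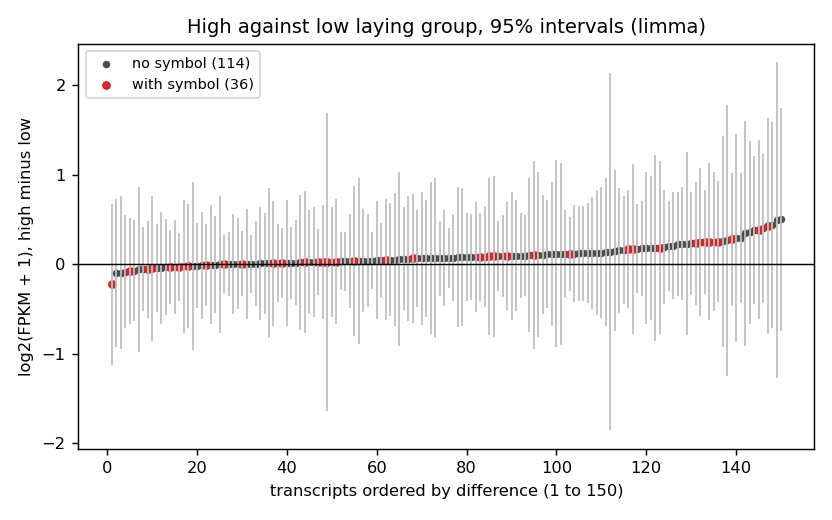
Difference in log2(FPKM + 1), high minus low, of the 150 members in order of size, with 95% intervals from limma (grey) and the 36 members with a symbol in red. Every interval includes 0, and the differences run from -0.22 to 0.50.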

How the data were processed

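Ovary RNA from 6 libraries was read from tables with 1 value per RefSeq transcript. Per the submitters' processing notes, Bowtie2 2.0.6 and TopHat2 2.0.9 were used; neither the notes nor the file headers name the abundance program, genome build or annotation. The deposited values carry no unit and were read as FPKM, since they are fractional and their sums differ between libraries. Depth is unknown, so precision rests on the replicates.

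Symbols came from RefSeq's gene table for a Pekin duck assembly (IASCAAS), matched by accession without version for 4636 transcripts (11.1%); placeholder names were treated as none. Values were taken as log2(FPKM + 1). The groups were compared over 19790 transcripts that reached 1 FPKM in 3 or more libraries, with limma-trend (limma 3.58.1, R 4.3.3), Benjamini-Hochberg adjusted over all of them, two-sided. Correlations and slopes were computed in Python 3.11.15, and both steps were also run on simulated data. Simulated transcripts without a planted pattern varied independently of each other, unlike those measured here, so no conclusion is drawn from them. Named members were those in a gene list, the 10 with a symbol and highest correlation, the 5 steepest and 5 shallowest with a symbol, the first 3 by correlation, those at the limit, and the 3 with the smallest p in each direction. The members, lists and tests were chosen with earlier results of these data known. Alternatives were other pseudocounts, filters, normalizations, a rank correlation, array weights and leaving out libraries. Promoter motifs planned for the members were not analysed here.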

Additional observations from a re-analysis of the deposited data

How the results depend on the processing

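Depth is unknown and 3 libraries per group limit precision. No paired analysis was possible because the titles give the groups no shared replicate numbers. No member was called in any setting. The choice of the 150 changed with single libraries: 49 to 95 were chosen again with a library left out, though 123 to 150 stayed among the first 500 by correlation. The number was 72 under quantile normalization, and 17 without both low 1 and low 3, an alternative chosen after the data were seen. The median slope was 0.51 under quantile normalization and 0.43 without low 1 and low 3. Over all tested transcripts limma called 0 with no filter on low values, 2292 with array weights, which gave low 2 97.1% of its group's weight, and 1 to 3 with a library left out. The causes were not tested.

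Of 28 named log2 differences, 26 changed sign in some setting and 0 passed the threshold in any. With a library left out the differences ran from -0.28 to 0.48 for ZP2, -0.36 to 0.21 for RBM46, -0.048 to 0.59 for USP33, -0.057 to 0.10 for SEC23A, -0.65 to 0.11 for EXO1, -0.25 to 0.50 for HAO1, -0.15 to 0.62 and -0.056 to 0.84 for TBPL2 (XM_013108407.1 and XM_013108409.1), -0.72 to 0.75 for RNF32, -0.30 to 0.32 for PLAU, -0.43 to 0.50 for MACC1, -0.37 to 0.39 for IRAG2, -0.12 to 0.26 for ARL9 and -0.18 to 0.34 for PRMT9. They ran from -0.37 to 0.31 for FAM120B, -0.20 to 0.82 for FRMD4B, -0.061 to 0.058 for DR1, -0.11 to 0.073 for YPEL5, -0.16 to 0.048 for PRCP, -0.092 to 0.10 for TMX4, -0.31 to 0.14 for CNP, -0.31 to 0.70 for XM_005022257.2, -0.32 to 0.40 for XM_005024264.2, -0.12 to 0.30 for XM_005017163.2, -0.034 to 0.72 for XM_005014133.2 and -0.39 to 0.13 for XM_005031554.2. Under quantile normalization the sign changed for ZP2 (-0.091), RBM46 (0.0022), SEC23A (-0.014) and YPEL5 (-0.050), and under median centring for DR1 (0.041) and PRCP (0.014). With array weights it changed for ZP2 (-0.022), RNF32 (-0.058), PLAU (-0.055), MACC1 (-0.13), IRAG2 (-0.064), FAM120B (-0.18), YPEL5 (-0.074), TMX4 (-0.031) and XM_005024264.2 (-0.054).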
